A study of Mus musculus with 23 samples.

Results

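The genes for 9 alcohol and aldehyde dehydrogenases were followed in mouse liver: Adh1, Adh4, Adh5, Aldh2, Aldh1a1, Aldh1a7, Aldh1b1, Aldh3a2 and Aldh9a1. They were chosen by gene name, as the enzymes outside the cytochromes P450 that oxidise ethanol, acetaldehyde and related substrates, and they are 9 of the 65535 genes in the table. All 9 passed the filter on low counts, which left 11370 genes for testing. Whole livers of 23 mice were profiled by sequencing the 3′ ends of polyA RNA. There were 6 male and 6 female libraries of CYP2E1-KO mice (129/Sv-Cyp2e1tm1Gonz/J, written KO), 6 male libraries of 129S1/SvImJ mice (written WT) and 5 female WT libraries. No treatment is given, and the mice were kept on normal chow. The growth protocol puts their age at 12 to 13 weeks, whereas another field says 16 weeks. KO and WT are separate lines, so the disrupted gene and any other difference between the lines cannot be told apart. The replicates are called biological, and whether they share litters is not given in the sources used here.

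In the liver, ethanol is oxidised to acetaldehyde mainly by cytosolic alcohol dehydrogenase, and acetaldehyde to acetate mainly by a mitochondrial aldehyde dehydrogenase. Both steps reduce NAD+ to NADH. CYP2E1, a cytochrome P450 of the endoplasmic reticulum, offers hepatocytes another route from ethanol to acetaldehyde, and catalase a further one. The same dehydrogenase families also act on retinol and retinal, formaldehyde bound to glutathione, fatty aldehydes and intermediates of carnitine synthesis.

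Cyp2e1 itself was between 21.7 and 49.4 CPM (counts relative to the library total) in Male KO and between 387 and 543 CPM in Male WT, and between 18.1 and 37.7 CPM in Female KO and between 323 and 455 CPM in Female WT. The KO libraries all lay below the WT libraries. Whether the counted 3′ end lies within the disrupted part of the gene is not given in the sources used here. Library totals were between 1538889 (Male KO replicate 3) and 9874733 counts (Male WT replicate 3), and the median was 4658677. Counts of mitochondrially encoded genes made up 7.32% to 16.2% of a library, with 16.1% in Male KO replicate 3 and 16.2% in Female WT replicate 5. All 7 hepatocyte markers were above 0 in every group, and markers of exocrine pancreas summed to at most 3.06 CPM. Xist was at most 4.34 CPM in male libraries and at least 61.1 CPM in female libraries.

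Aldh1a1 and Aldh1a7 are neighbours on chromosome 19 that are read in opposite directions, and their similarity bears on how far their counts can be told apart. Between their reference transcripts, 88.8% of 2036 aligned bases were identical, and over the last 500 bases of Aldh1a1 the identity was 79.9%. Of 1506 coding bases, 126 differed (91.6% identity). The last 90 coding bases, up to the stop codon, differ at 7 bases, which are in capitals below (GENCODE M21, on GRCm38).
Aldh1a1: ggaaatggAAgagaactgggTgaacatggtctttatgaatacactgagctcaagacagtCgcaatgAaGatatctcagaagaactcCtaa
Aldh1a7: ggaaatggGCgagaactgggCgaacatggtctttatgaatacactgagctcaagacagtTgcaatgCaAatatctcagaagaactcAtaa

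The similarity extends upstream of the genes. The last 100 bases before the annotated start of Aldh1a1 (chr19:20601868-20601967, plus strand) and of Aldh1a7 (chr19:20727557-20727656, minus strand) are 94% identical, and the 6 bases that differ are in capitals below (RefSeq, GRCm38.p6).
Aldh1a1: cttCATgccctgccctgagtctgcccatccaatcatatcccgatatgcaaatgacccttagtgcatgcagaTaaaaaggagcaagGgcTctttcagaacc
Aldh1a7: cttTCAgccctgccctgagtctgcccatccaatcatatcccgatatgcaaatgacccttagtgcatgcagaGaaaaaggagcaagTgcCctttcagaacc

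Deposited counts that are not whole may come from reads divided between genes, but the counting settings are not given in the sources used here. A whole count need not mean that no read was divided, since fractions can add up to a whole number. A count was fractional in 14 of 23 libraries for Adh1, 10 for Aldh1a1, 8 for Aldh1a7, 4 for Aldh2 and 1 for Adh5. It was whole in every library for Adh4, Aldh1b1, Aldh3a2 and Aldh9a1. Differences between Aldh1a1 and Aldh1a7 are therefore uncertain to the extent that the counting moved reads from one to the other.

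The promoters of 3 further genes whose level differed between the sexes, Adh4, Aldh3a2 and Aldh1b1, are printed to show the sequence in front of their starts. Each is the 250 bases before the start in RefSeq (GRCm38.p6), which is the sequence of C57BL/6J and not of a 129 line. They lie at chr3:138415247-138415496 (Adh4, plus strand), chr11:61267187-61267436 (Aldh3a2, minus strand) and chr4:45798772-45799021 (Aldh1b1, plus strand). Capitals mark AGGTCA, the core motif of many nuclear receptors.
Adh4: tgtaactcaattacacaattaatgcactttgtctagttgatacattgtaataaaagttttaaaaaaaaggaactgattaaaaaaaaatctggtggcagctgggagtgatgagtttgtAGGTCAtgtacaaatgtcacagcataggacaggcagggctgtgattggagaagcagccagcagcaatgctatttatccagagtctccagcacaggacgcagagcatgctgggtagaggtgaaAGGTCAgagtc
Aldh3a2: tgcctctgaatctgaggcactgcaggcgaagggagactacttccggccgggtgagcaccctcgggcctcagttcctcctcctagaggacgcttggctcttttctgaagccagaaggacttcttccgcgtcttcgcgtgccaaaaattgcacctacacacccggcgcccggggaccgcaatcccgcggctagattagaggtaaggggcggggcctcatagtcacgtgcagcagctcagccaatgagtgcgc
Aldh1b1: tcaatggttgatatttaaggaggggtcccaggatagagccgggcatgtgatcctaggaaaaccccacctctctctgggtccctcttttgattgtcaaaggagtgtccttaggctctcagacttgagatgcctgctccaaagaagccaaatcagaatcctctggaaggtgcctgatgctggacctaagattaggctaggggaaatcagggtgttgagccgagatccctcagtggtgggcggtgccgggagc

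The searched letters were AGGTCA, the STAT motif TTCNNNGAA and the TATA box TATAAA, on both strands; none of these contains another. The Adh4 window held 2 copies of AGGTCA, whose first bases lie at -133 and -11 from the start. AGGTCA was present in 14% of the 32851 promoter windows of this length, TTCNNNGAA in 7.02% and TATAAA in 12.4%. A window was found for 8 of the 9 genes. Among these, Aldh1a7 held TATAAA at -244 and Aldh9a1 held TTCNNNGAA at -210, and the windows of Adh1, Adh5, Aldh1a1, Aldh1b1 and Aldh3a2 held none of the searched letters. A match describes the letters and does not show binding.

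**Figure D1:**
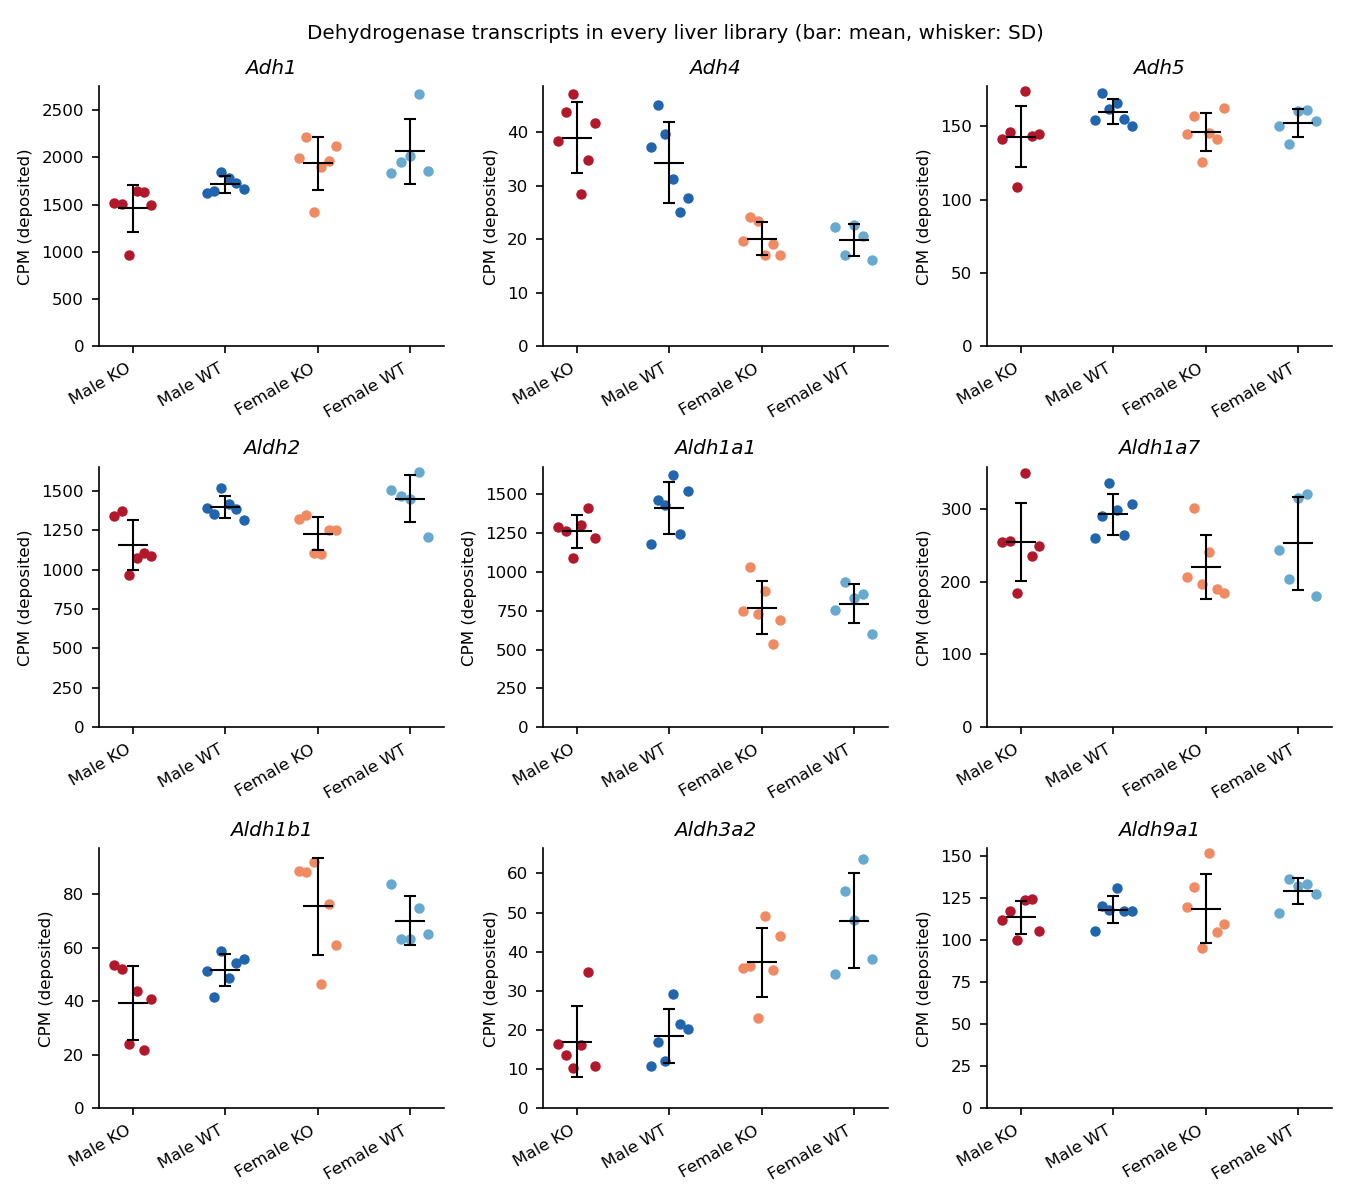
Deposited CPM of each dehydrogenase gene in each liver library (points), with the group mean (bar) and SD (whisker), for 6 Male KO, 6 Male WT, 6 Female KO and 5 Female WT libraries; all axes are linear and start at 0. Adh4 and Aldh1a1 lay higher in every male library than in any female library of the same genotype, while the KO and WT points of each sex overlapped for every gene.

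The first comparison asked whether the other enzymes of ethanol and acetaldehyde oxidation differ in livers of CYP2E1-KO mice. No dehydrogenase gene was called between KO and WT in males or in females, at a Benjamini-Hochberg adjusted p under 0.05 in edgeR's quasi-likelihood test. Among all tested genes, 0.132% were called in males and 0.193% in females. At an unadjusted p under 0.05 there was 1 of 9 in each sex (Aldh2 in both), against 13.1% of all tested genes in males and 8.84% in females. Aldh1b1 in males lay just above that threshold (unadjusted p = 0.0500027, edgeR). KO and WT libraries overlapped for all 9 genes in both sexes, whereas they did not overlap for 0.616% of all tested genes in males and 1.07% in females. The median log2 fold change of the 9 genes was -0.08 in males and -0.05 in females, beside 0.04 and 0.01 over all tested genes. Ratios and fold changes are from edgeR with TMM scaling of the libraries, whereas the deposited CPM values beside them carry no scaling factor. With unscaled library totals, KO to WT log2 fold changes over all genes shifted by a median of -0.0584 in males and -0.0282 in females. Since whole liver was sampled, fewer cells of a type and less RNA per cell cannot be told apart.

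Adh1 encodes the main ethanol-oxidising alcohol dehydrogenase of mouse liver. It averaged 1460 ± 251 CPM in Male KO, 1715 ± 87.6 CPM in Male WT, 1935 ± 279 CPM in Female KO and 2064 ± 345 CPM in Female WT (SD, n = 6, 6, 6 and 5). In Male KO the libraries had a lowest, median and highest value of 965, 1515 and 1639 CPM, and in Male WT of 1623, 1695 and 1847 CPM. Of the Male KO libraries, 4 lay below all Male WT libraries and the others lay among them. The KO to WT ratio was 0.902 in males, with a 95% interval of 0.748 to 1.09 (adjusted p = 0.630, edgeR). In females it was 0.965, with an interval of 0.793 to 1.17 (adjusted p = 0.963, edgeR).

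Adh4 and Adh5 encode the other alcohol dehydrogenases examined. Adh4 is the class II enzyme, which acts on ethanol at high concentrations and on retinol, and Adh5 is the glutathione-dependent formaldehyde dehydrogenase, which also reduces S-nitrosoglutathione. Adh4 averaged 39.0 ± 6.72 CPM in Male KO and 34.3 ± 7.63 CPM in Male WT, and 20.1 ± 3.08 CPM in Female KO and 19.8 ± 3.00 CPM in Female WT. Its KO to WT ratio was 1.19 in males (95% interval 0.973 to 1.46) and 1.03 in females (0.828 to 1.29). Adh5 averaged 143 ± 20.9 CPM in Male KO and 160 ± 8.43 CPM in Male WT, and 146 ± 12.9 CPM in Female KO and 153 ± 9.49 CPM in Female WT. The ratio for Adh5 was 0.948 in males (0.815 to 1.10) and 0.984 in females (0.840 to 1.15).

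Aldh2 encodes the mitochondrial aldehyde dehydrogenase that clears most acetaldehyde. Male KO libraries had 1339, 1368, 964, 1073, 1107 and 1085 CPM, against 1389, 1353, 1518, 1416, 1381 and 1317 CPM in Male WT. Of the 6 Male KO libraries, 4 lay below every Male WT library, and the other two lay within the Male WT range. Female KO libraries had 1319, 1345, 1103, 1099, 1251 and 1252 CPM, against 1507, 1465, 1448, 1617 and 1209 CPM in Female WT. Of the 5 Female WT libraries, 4 lay above every Female KO library, and Female WT replicate 5 lay among them.

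The log2 fold change of Aldh2 was -0.20 in males (SE 0.09, 95% interval -0.38 to -0.01) and -0.20 in females (SE 0.09, interval -0.39 to -0.01). Neither passed, with adjusted p = 0.361 in males and 0.536 in females (edgeR). Averaged over the sexes it was -0.20 (interval -0.33 to -0.07), with an unadjusted p of 0.00463 and an adjusted p of 0.136 (edgeR). In that comparison 0 of the 9 genes were called, beside 0.431% of all tested genes, and 1 had an unadjusted p under 0.05, beside 15.6%. DESeq2 gave the same averaged difference for Aldh2 (-0.20) with an adjusted p of 0.00663, so that the call depends on the tool. Over all genes DESeq2 called 166 in that comparison, and edgeR called 49. Under each of the other alternatives, leaving out each library in turn included, the averaged difference stayed below 0 and the adjusted p above 0.05. The fold difference between the sexes in this effect was 1.00, with an interval of 0.837 to 1.20.

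**Figure D2:**
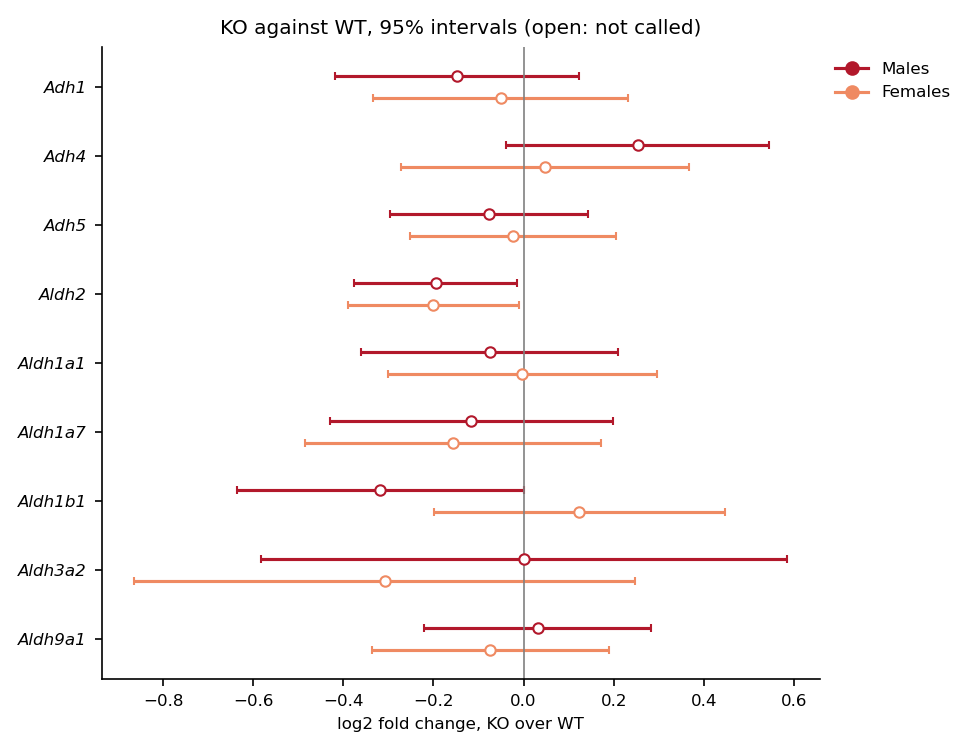
Log2 fold change of each dehydrogenase gene between KO and WT livers (points) with 95% intervals, from edgeR, in males (upper of each pair) and females (lower); open points are not called. The Aldh2 intervals end just below 0 in both sexes, at -0.01, and those of the other genes include 0. The male interval of Aldh1b1 ends at 4.02e-06 and so only just includes 0.

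Aldh1a1 and Aldh1a7 are cytosolic. Aldh1a1 oxidises retinal to retinoic acid and also acetaldehyde, and Aldh1a7 is a closely related rodent enzyme. Aldh1a1 averaged 1258 ± 107 CPM in Male KO and 1408 ± 168 CPM in Male WT. The KO to WT ratio fitted by edgeR after scaling was 0.949 in males (95% interval 0.779 to 1.16). In females Aldh1a1 averaged 769 ± 168 CPM in KO and 794 ± 125 CPM in WT, and the fitted ratio was 0.998 (0.811 to 1.23). Aldh1a7 averaged 254 ± 53.2 CPM in Male KO and 292 ± 27.9 CPM in Male WT, and 220 ± 44.4 CPM in Female KO and 252 ± 63.6 CPM in Female WT. The ratios for Aldh1a7 were 0.922 (0.742 to 1.15) in males and 0.897 (0.714 to 1.13) in females.

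Aldh1b1 is a mitochondrial enzyme related to Aldh2 that also accepts acetaldehyde. Male KO libraries had 53.7, 52.2, 23.9, 43.7, 21.7 and 40.8 CPM, against 51.4, 41.5, 58.6, 48.8, 54.1 and 55.8 CPM in Male WT. Replicates 3 and 5 of Male KO lay far below the others, and these libraries held the fewest counts of Male KO, 1538889 and 3705978. Replicates 4 and 6, at 43.7 and 40.8 CPM, held 4093427 and 4090412 counts. The part of library depth in these values was not tested. Female KO libraries had 88.5, 88.3, 91.9, 46.3, 76.4 and 60.9 CPM, against 84.0, 63.3, 63.2, 74.8 and 65.3 CPM in Female WT. The log2 fold change was -0.32 in males (SE 0.15, adjusted p = 0.381, edgeR) and 0.12 in females (SE 0.16, adjusted p = 0.891, edgeR). The difference between them, -0.44 (interval -0.90 to 0.01), had an adjusted p of 0.909. No gene was called in the test of that difference (0% of all tested genes), and 5.66% of all genes but 0 of these 9 had an unadjusted p under 0.05. Summed Kupffer cell markers (10 genes) were between 137 and 401 CPM in Male KO and between 118 and 176 CPM in Male WT; their part in the Aldh1b1 values was not tested.

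Aldh3a2, the fatty aldehyde dehydrogenase of the endoplasmic reticulum, and Aldh9a1, which acts in carnitine synthesis, overlapped between genotypes. Aldh3a2 averaged 17.1 ± 9.08 CPM in Male KO and 18.5 ± 6.77 CPM in Male WT, and 37.3 ± 8.86 CPM in Female KO and 47.9 ± 12.1 CPM in Female WT. Its lowest count in a library was 16, in Male KO, and it had the widest KO to WT intervals of the 9 genes: 0.668 to 1.50 around a ratio of 1.00 in males, and 0.549 to 1.19 around 0.808 in females. The sign of the male value differs between scalings. Aldh9a1 averaged 114 ± 9.83 CPM in Male KO and 118 ± 8.10 CPM in Male WT, and 119 ± 20.4 CPM in Female KO and 129 ± 7.87 CPM in Female WT. Its log2 fold change was 0.03 (interval -0.22 to 0.28) in males and -0.07 (-0.34 to 0.19) in females, and the male value was below 0 with unscaled library totals and without the filter.

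The second comparison was between the sexes within each genotype. In KO livers 4 of the 9 genes were called, of which Adh4 and Aldh1a1 were higher and Aldh1b1 and Aldh3a2 lower in males. In WT livers 3 were called, Adh4 and Aldh1a1 higher and Aldh3a2 lower in males. Among all tested genes, 7.44% were called in KO (3.67% higher and 3.77% lower in males) and 5.61% in WT (2.36% higher and 3.25% lower). Adh1, Adh5, Aldh2, Aldh1a7 and Aldh9a1 were not called in either genotype. Deposited CPM values carry no scaling factor: against them, TMM scaling raised the median log2 fold change of all genes between males and females by 0.131 in KO and 0.10 in WT.

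Adh4 had 38.3, 43.7, 47.1, 28.4, 34.9 and 41.8 CPM in Male KO, against 19.6, 24.2, 23.3, 17.1, 19.1 and 17.1 CPM in Female KO. Male WT libraries had 37.3, 45.0, 39.7, 31.2, 25.1 and 27.7 CPM, against 22.3, 17.1, 22.7, 20.7 and 16.2 CPM in Female WT. Every male library lay above every female library in both genotypes, as was true of 1.19% of all tested genes in KO and 2.23% in WT. The level was 2.14-fold higher in males in KO (log2 1.10, SE 0.15, adjusted p = 5.78e-06, edgeR) and 1.86-fold higher in WT (log2 0.90, SE 0.15, adjusted p = 0.000196, edgeR). The order of the group means was Male KO, Male WT, Female KO and Female WT, and within each sex the neighbours overlapped.

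Aldh1a1 differed in the same direction. It had 1284, 1261, 1085, 1297, 1409 and 1214 CPM in Male KO, against 749, 1032, 729, 875, 538 and 689 CPM in Female KO. In WT it had 1176, 1464, 1428, 1618, 1245 and 1520 CPM in males, against 752, 932, 829.4, 854 and 603 CPM in females. The lowest male library was again above the highest female library of its genotype. The level was 1.82-fold higher in males in KO (log2 0.86, SE 0.14, adjusted p = 9.84e-05, edgeR) and 1.91-fold higher in WT (log2 0.93, SE 0.15, adjusted p = 7.43e-05, edgeR).

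Aldh1a7, the neighbour of Aldh1a1, had a male to female ratio of 1.28 in KO (95% interval 1.03 to 1.59, adjusted p = 0.148, edgeR) and 1.25 in WT (0.992 to 1.57, adjusted p = 0.315, edgeR). It did not pass the test in either genotype, and its male and female libraries overlapped. Because reads may move between these genes, their sum was also taken. Aldh1a1 and Aldh1a7 together had 1513 ± 140 CPM in Male KO and 989 ± 210 CPM in Female KO, and 1701 ± 188 CPM in Male WT and 1046 ± 163 CPM in Female WT. The sum separated the sexes completely in WT, while in KO 5 of the 6 male libraries lay above all female libraries.

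Aldh1b1 was lower in males in KO and did not pass the test in WT. The log2 fold change was -0.78 in KO (SE 0.15, adjusted p = 0.00132, edgeR), where Male KO averaged 39.3 ± 13.7 CPM and Female KO 75.4 ± 18.2 CPM. In WT it was -0.34 (SE 0.16, interval -0.66 to -0.01, adjusted p = 0.269, edgeR), where Male WT averaged 51.7 ± 6.05 CPM and Female WT 70.1 ± 9.11 CPM. Male and female libraries overlapped in KO, where 1 female library, at 46.3 CPM, lay within the male range. In WT all 6 males lay below all 5 females, as was true of 5.5% of all tested genes. The KO and WT sex differences were not shown to differ, since the difference between them is the value of -0.44 given above.

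Aldh3a2 was also lower in males. Male KO libraries had 16.4, 13.7, 10.3, 16.3, 34.9 and 10.9 CPM, against 35.7, 36.5, 23.1, 49.1, 35.2 and 44.0 CPM in Female KO. Male WT libraries had 10.9, 17.0, 12.0, 29.2, 21.6 and 20.2 CPM, against 34.4, 55.6, 48.0, 63.7 and 38.1 CPM in Female WT. The sexes did not overlap in WT, and in KO a single male library, replicate 5, reached the female range. The log2 fold change was -0.97 in KO (SE 0.28, adjusted p = 0.0306, edgeR) and -1.28 in WT (SE 0.28, adjusted p = 0.00348, edgeR). The KO call was lost without Male KO replicate 3, 4 or 6 or Female KO replicate 6, with adjusted p between 0.0583 and 0.0845, and it was lost with the KO groups fitted alone (adjusted p = 0.0852). Without Male KO replicate 5 the difference was -1.35 (adjusted p = 0.000577, edgeR).

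**Figure D3:**
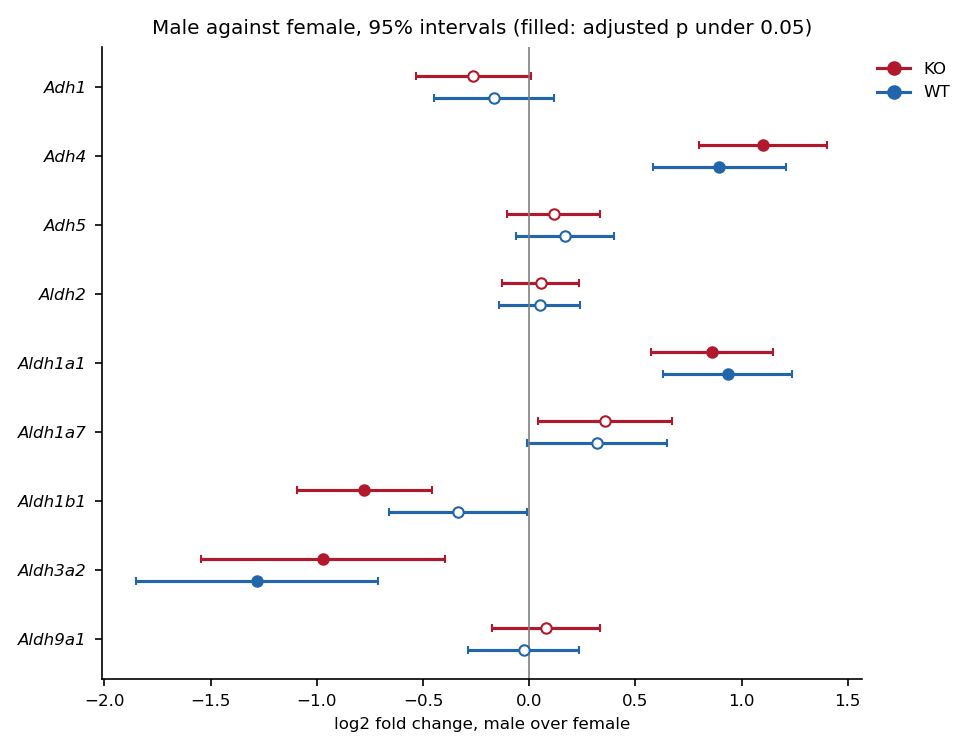
Log2 fold change of each dehydrogenase gene between male and female livers (points) with 95% intervals, from edgeR, in KO (upper of each pair) and WT (lower); filled points have an adjusted p under 0.05. Adh4 and Aldh1a1 lay right of 0, between 0.86 and 1.10 in KO and at 0.90 and 0.93 in WT, and Aldh3a2 lay left of 0, at -0.97 in KO and -1.28 in WT.

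The remaining genes had intervals that bound any sex difference. Adh1 was at a male to female ratio of 0.834 in KO (95% interval 0.691 to 1.01, adjusted p = 0.224, edgeR) and 0.892 in WT (0.733 to 1.09, adjusted p = 0.599, edgeR). With unscaled library totals the KO difference of Adh1 was -0.41 on the log2 scale and passed (adjusted p = 0.0385, edgeR). The log2 fold change of Adh5 was 0.12 (-0.10 to 0.33) in KO and 0.17 (-0.06 to 0.40) in WT. The male to female ratios of Aldh2 were 1.04 (0.916 to 1.18) in KO and 1.03 (0.907 to 1.18) in WT, and those of Aldh9a1 were 1.06 (0.886 to 1.26) and 0.982 (0.818 to 1.18). With unscaled totals the KO values of Adh5, Aldh2 and Aldh9a1 and the WT value of Aldh2 changed sign.

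Cell composition and library quality were measured beside these sex differences. Pericentral hepatocyte markers (12 genes, all above 0 in each group) were summed. The sums were between 2481 and 3500 CPM in Male KO and between 2908 and 3580 CPM in Female KO. They were between 3258 and 3826 CPM in Male WT and between 3187 and 3695 CPM in Female WT. Those ranges overlapped, but the list held genes that differed between the sexes in opposite directions. Cyp2a5 was called lower in males, at a log2 fold change of -2.53 in KO and -1.75 in WT. Cyp1a2 was called higher in males in WT, at 0.49, and was not called in KO, at 0.22. No other gene of this list was called between the sexes. Summed markers of sinusoidal endothelium (9 genes, all above 0 in each group) were between 102 and 217 CPM in Male KO and between 58.9 and 220 CPM in Female KO, and between 146 and 183 CPM in Male WT and between 194 and 228 CPM in Female WT, so that in WT every male library lay below every female library. Summed Kupffer cell markers were between 137 and 401 CPM in Male KO and between 90.6 and 380 CPM in Female KO, and between 118 and 176 CPM in Male WT and between 169 and 258 CPM in Female WT. Of the tested markers, 9 of 9 endothelial and 8 of 9 Kupffer cell genes had a male to female log2 fold change above 0 in KO, against 0 of 9 and 0 of 9 in WT, and none of them was called. Markers of stomach and gut epithelium (6 genes) summed to 57.4 to 92.2 CPM in Male WT and 37.6 to 55.5 CPM in Female WT. Fabp2 alone made up nearly all of that sum, at 56.7 to 91.6 CPM in Male WT and 35.1 to 53.2 CPM in Female WT. The adipocyte list (6 genes) summed to 3450 to 4740 CPM in Male WT and 1279 to 1617 CPM in Female WT. Car3 alone was at 3443 to 4726 CPM in Male WT and 1264 to 1614 CPM in Female WT. Both sums were higher in every male WT library, and in KO their ranges overlapped. Each sum followed a single gene, so neither was read as an amount of that tissue. Mitochondrially encoded counts took 7.32% to 16.1% of Male KO libraries and 9.20% to 14.9% of Female KO libraries, and 7.87% to 9.35% of Male WT libraries and 9.26% to 16.2% of Female WT libraries. The part of these markers and of this share in the differences between sexes was not tested.

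The rest of the family and the neighbouring pathways were described by counts. Of 19 other alcohol and aldehyde dehydrogenase genes, 9 passed the filter. None of these was called between KO and WT in either sex, beside 0.132% of all tested genes in males and 0.193% in females. A count of 0 therefore lies near the share over all genes. The median log2 fold change of the 9 was -0.05 in males and 0.04 in females. Aldh5a1 had the lowest values of the 9, -0.44 in males and -0.28 in females (adjusted p = 0.241 and 0.610, edgeR). Between the sexes only Aldh4a1, a mitochondrial enzyme of proline breakdown, was called. It was lower in males in KO (log2 -0.32, adjusted p = 0.0444, edgeR), where 3.77% of all tested genes were called lower. In WT it was at -0.23 (adjusted p = 0.237, edgeR), where 5.61% of all tested genes were called in either direction.

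Of 8 other genes of ethanol oxidation and acetate use, 7 were tested. Cyp2e1 was the only one called between genotypes, lower in KO by a log2 fold change of -3.84 in males and -3.89 in females. The share called over all tested genes was 0.132% in males and 0.193% in females. Between the sexes 0 were called higher and 2 lower in males in KO, beside 3.67% and 3.77% of all tested genes. In WT 2 were called higher and 2 lower, beside 2.36% and 3.25%. Between the sexes Acss3, an acyl-CoA synthetase of mitochondria, was lower in males in KO (-1.23) and in WT (-1.38). Cyp3a11, a drug-oxidising cytochrome P450, was lower in males as well, at -1.30 in KO and -1.36 in WT. Cat, which encodes catalase, and Cyp1a2 were higher in males in WT, at 0.43 and 0.49, and had 0.32 and 0.22 in KO (adjusted p = 0.0592 and 0.213, edgeR). The interaction, which tests whether such sex differences differ between genotypes, called none of these genes and 0% of all tested genes.

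Of 18 carbonyl reductase and aldehyde oxidase genes in the table, 14 were tested. Between genotypes 0 were called, beside 0.132% of all tested genes in males and 0.193% in females. In KO 3 were higher and 1 lower in males, and in WT 2 were higher and 1 lower, beside 3.67% higher and 3.77% lower of all tested genes in KO and 2.36% and 3.25% in WT. Aox3, an aldehyde oxidase, was higher in males by 1.64 in KO and 1.95 in WT on the log2 scale. Cbr1, a cytosolic carbonyl reductase, was lower in males by a log2 fold change of -0.64 in KO and -0.96 in WT. Aox1 (1.09) and Akr1c6 (0.87) were called higher in males in KO, where Akr7a5 had 0.18, and Akr7a5 (0.40) was called higher in WT, where Aox1 had 0.36 and Akr1c6 had 0.51.

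Of 21 genes of retinoid oxidation and storage, 18 were tested. Of these, 6 were lower and 0 higher in males in KO, and 5 were lower and 0 higher in males in WT, beside 3.77% and 3.25% of all tested genes lower in males. Rdh16f2 and Rdh9, short-chain dehydrogenases of the retinol dehydrogenase family, were at log2 fold changes of -1.96 and -1.23 in KO and -2.52 and -0.83 in WT. Rdh16, of the same dehydrogenase family, was at -0.68 in KO and -0.92 in WT. Bco1, which cleaves beta-carotene, was at -0.74 in KO and -0.59 in WT. The list's median was -0.32 in KO and -0.15 in WT. None of the 18 was called between KO and WT, beside 0.132% of all tested genes in males and 0.193% in females.

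The NADH made by these enzymes is reoxidised partly through the malate-aspartate and glycerol phosphate shuttles. Of 10 genes of these shuttles and of the transhydrogenase Nnt, represented by 11 tested gene IDs because Nnt has 2, 0 were called in any comparison. Over all tested genes the share called ran from 0% in the interaction to 7.44% between the sexes in KO, with 0.132% between genotypes in males and 0.193% in females. All 11 log2 fold changes were below 0 between Male KO and Male WT, with a median of -0.13, while 55.9% of all tested genes were above 0. Got2, the mitochondrial aspartate aminotransferase, had the lowest value, -0.36 (adjusted p = 0.293, edgeR). In females 6 of the 11 were above 0, with a median of 0.02.

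**Figure D4:**
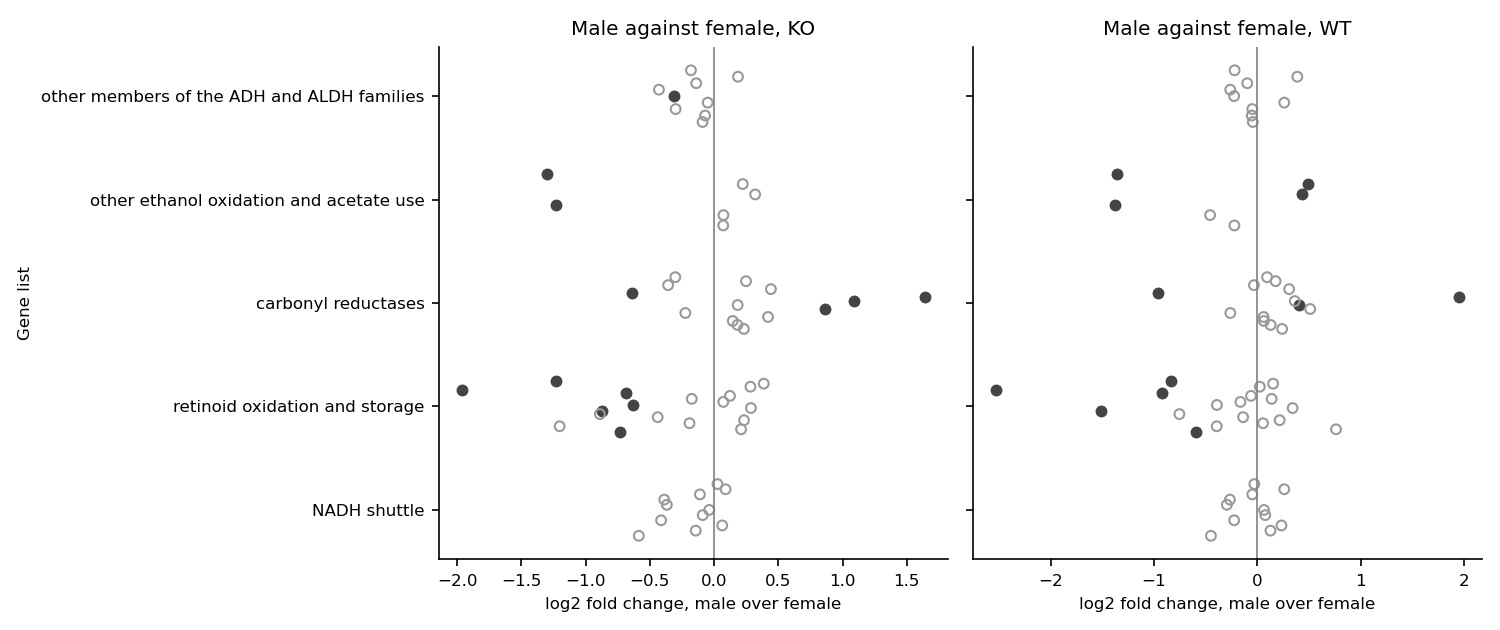
Log2 fold change between male and female livers of every tested gene in 5 related lists (points), in KO (left) and WT (right), from edgeR; filled points have an adjusted p under 0.05. Called retinoid genes lay left of 0 in both genotypes, with Rdh16f2 lowest at -1.96 in KO and -2.52 in WT, and Aox3 lay furthest right among carbonyl reductases at 1.64 and 1.95.

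How the 9 genes varied within groups was described by Pearson's r of log2 CPM over the 23 libraries after each group's mean was subtracted. Libraries share their depth and scaling across genes, and no p is given. Of 36 pairs, 25 were positive, with a median r of 0.296, beside a median of 0.00603 over pairs of 7710 genes. Values near 0.296 were common among all those pairs. The 0.288 of Adh5 with Aldh2 was reached by 23.9% of them, and the 0.304 of Aldh1a7 with Aldh3a2 by 22.6%. The highest of the 36 was Adh1 with Adh5 at 0.79, followed by Aldh1a1 with Aldh9a1 at 0.72 and Aldh3a2 with Aldh9a1 at 0.71. These were reached by 0.847%, 1.90% and 2.12% of all pairs. Aldh1b1 had negative r with Aldh9a1 (-0.58) and with Aldh3a2 (-0.54). Against the share of mitochondrially encoded counts, r was -0.68 for Aldh1a7, -0.65 for Adh1 and 0.12 for Adh4, and lay between -0.49 and -0.15 for the other genes.

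**Figure D5:**
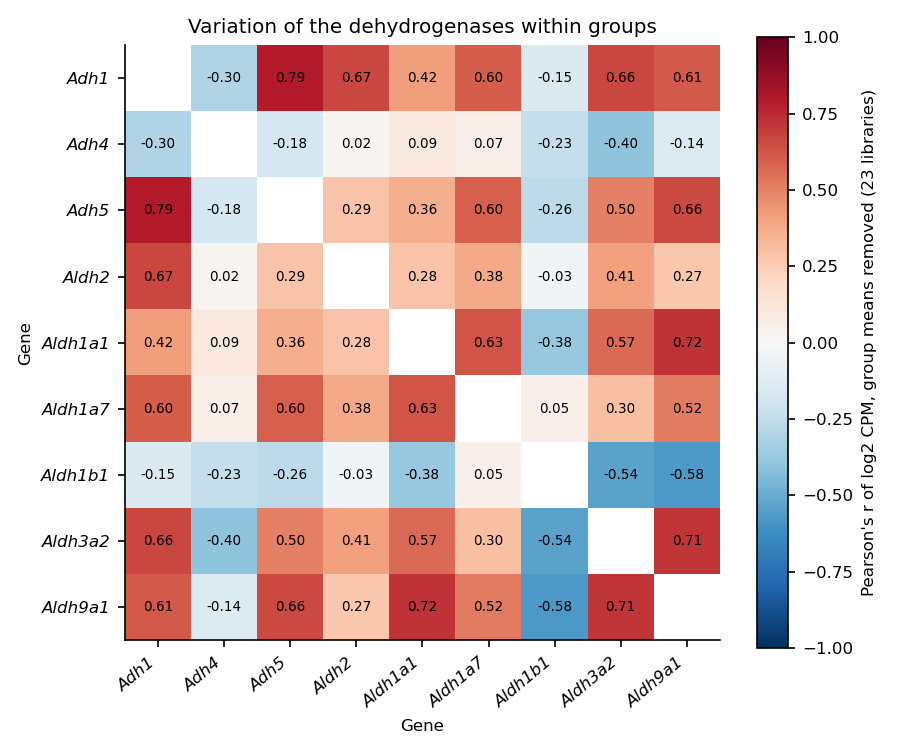
Pearson's r between each pair of dehydrogenase genes of log2 CPM with group means removed, over 23 libraries (colour and printed value; red positive, blue negative). The highest cell is Adh1 with Adh5, at 0.79, and Aldh1b1 has the lowest cells, at -0.58 and -0.54.

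The genes most like each dehydrogenase within groups were named by the same r. They were Prdx6 (0.92) for Adh1, Eva1a (0.80) for Adh4, Pglyrp2 (0.88) for Adh5 and Emc10 (0.82) for Aldh2. They were Dpp3 (0.83) for Aldh1a1, Atp5mc1 (0.80) for Aldh1a7, Add3 (0.89) for Aldh1b1, Decr2 (0.89) for Aldh3a2 and Perp (0.90) for Aldh9a1. With group means kept, so that sex and genotype also count, Adh4 was most like Nudt7 (0.93), Cela1 (0.92) and Elovl3 (0.91). Aldh1a1 was then most like Tmem19 (0.95), Abcg2 (0.94) and Ces3a (0.94), and Aldh3a2 most like Idh2, Vnn3 and Rdh16 (0.91 each).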

How the data were processed

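PolyA RNA of whole livers was profiled by 3′ end counting, and the sample titles gave each library's group and replicate number. The deposited table holds expected counts, which need not be whole, and CPM values; the authors' CPM totals exceed the table's sums by 0.579% to 1.15%. Per the submitters' processing notes, these values were made on mm39 with tools that include STAR 2.7.11, featureCounts (Subread 2.1.1) and fastp 0.24.0; their settings are not given in the sources used here. Strand use in counting is not stated. Between 33.7% and 55.0% of a library's counts lay in genes with a fractional count. The table has 65535 genes, of which 11373 have no name and 32853 have a count, and 0 columns belong to no sample. That number of genes is the most that an xls sheet holds under a header line, so the table may be cut, and genes beyond it are not analysed here.

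Levels are deposited CPM (mean ± SD). Counts were rounded and tested with edgeR 4.0.16 (R 4.3.3; quasi-likelihood, TMM, filterByExpr, 23 libraries in 1 fit), with Benjamini-Hochberg adjustment over 11370 genes and a threshold of 0.05. Standard errors came from the fold change and F statistic. On simulated data with 200 changed genes of 11370, the fit recovered 14.5%, 73% and 96% of 1.5-fold, 2-fold and 3-fold changes in males, and 20.5%, 73% and 95% in females. Replicates were not copies: over 55 pairs, chi-square per degree of freedom was 3.05 to 37.5. Alternatives were DESeq2 1.42.0, limma-voom (limma 3.58.1), median-of-ratios and upper-quartile scaling, unscaled totals, no filter, a replicate block, fitting only the groups compared, and leaving out each library.

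Named genes are the 9 dehydrogenases, up to 4 called genes per list and comparison by adjusted p, and the 3 genes with the highest r (mean of at least 5 CPM). Got2 and Aldh5a1 were named after their values were seen, as were the 2 pericentral markers given singly. The values of 1 listed gene are not reported here. Members and lists were chosen with earlier results of these data known. Transcripts were compared with BLAST 2.17.0; sequences are from RefSeq and GENCODE on GRCm38, not mm39.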

Additional observations from a re-analysis of the deposited data

Results flagged for a closer look

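In 3 of 36 sets of libraries (9 genes in 4 groups) 1 library stood apart from its group, by a gap to the nearest library that took a large part of the group's range. Chance flags about 1 set in 20. Adh1 was lowest in Male KO replicate 3, at 965 CPM (gap 0.781 of the range); that library had the lowest total of all and 16.1% mitochondrially encoded counts, and without it the log2 fold change of Adh1 between Male KO and Male WT was -0.08. Adh1 was highest in Female WT replicate 4, at 2669 CPM (gap 0.790 of the range), and without it the difference between Female KO and Female WT was 0.05. Aldh3a2 was highest in Male KO replicate 5, at 34.9 CPM (gap 0.753 of the range), and without it the difference between Male KO and Male WT was -0.38.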

How the results depend on the processing

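The number of the 9 genes called was 0 in the 2 genotype comparisons and in the sex by genotype interaction under each alternative. In the genotype effect averaged over sexes it was 1 with DESeq2 (Aldh2) and 0 otherwise. Between males and females it was 3 in WT throughout, and in KO 5 with unscaled totals (with Adh1), 3 with the KO groups alone (without Aldh3a2) and 3 to 4 when single libraries were left out. Calls among all genes moved more: KO against WT called 15 genes in males (7 to 157 over alternatives, 7 to 49 without single libraries), 22 in females (15 to 62, 13 to 24) and 49 averaged (27 to 244, 26 to 186). The most came with no filter, and among single libraries left out without Male KO replicate 2 (males, averaged) or Female KO replicate 2 (females). The interaction called 0 (0 to 25). Male against female called 846 in KO (398 to 1056, and 592 to 1693 without single libraries, the most without Male KO replicate 2) and 638 in WT (594 to 1121, 502 to 566). Whether the replicate numbers pair the samples was not settled. Deviations of 33 same-numbered pairs between groups had r from -0.362 to 0.317, with a median of 0.0934 and 16 above 0.1. The median was -0.0292 over pairs with different numbers. Of 23 libraries, 7 correlated best with a library of their own number. With the replicate block the numbers of the 9 genes called were 0, 0, 0, 0, 4 and 3 in the 6 comparisons, and Aldh3a2 between Male KO and Male WT was at -0.00892.

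Log2 values near 0 changed sign, and the cause was not tested. Between Male KO and Male WT, Aldh3a2 was at -0.00342 (DESeq2), -0.056 (limma-voom), -0.00050 (median-of-ratios), -0.089 (unscaled totals), -0.053 (no filter) and -0.00639 (only these groups), and Aldh9a1 at -0.053 (unscaled) and -0.034 (no filter). Between Female KO and Female WT, Aldh1a1 was at 0.0013 (DESeq2), 0.001425 (median-of-ratios), 0.018 (upper-quartile) and 0.0048 (only these groups). The interaction of Aldh2 was at -0.034 (unscaled) and -0.041 (no filter). With unscaled totals, male against female was at -0.030 for Adh5, -0.088 for Aldh2 and -0.061 for Aldh9a1 in KO, and -0.054 for Aldh2 in WT.

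Leaving out single libraries gave ranges that cross 0. In males, KO against WT ran from -0.38 to 0.16 for Aldh3a2 and from -0.028 to 0.070 for Aldh9a1. In females it ran from -0.096 to 0.051 for Adh1, -0.0050 to 0.10 for Adh4, -0.064 to 0.036 for Adh5, -0.088 to 0.081 for Aldh1a1 and -0.21 to 0.00090 for Aldh9a1. Averaged, it ran from -0.083 to 0.0031 for Aldh1a1 and from -0.089 to 0.013 for Aldh9a1. The interaction ran from -0.050 to 0.043 for Aldh2, -0.16 to 0.0095 for Aldh1a1, -0.088 to 0.13 for Aldh1a7 and -0.076 to 0.47 for Aldh3a2. Male against female in WT ran from -0.067 to 0.013 for Aldh9a1. The lowest count of the 9 genes in a library was 16, for Aldh3a2 in Male KO replicate 3.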
